A study of Mus musculus with 8 samples.

Results

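The axon guidance ligands and receptors were followed in brain stem (BS) RNA-seq of KI mice and their controls. These genes were taken from the table of gene values by symbol, as every semaphorin of classes 3 to 7, plexin, neuropilin, Eph receptor, ephrin, slit, robo, netrin, netrin-G, Unc5 receptor and Dcc. The rule found 72 of 24081 genes, and 70 of them passed a filter on low values (a mean of at least 10 normalized counts over the 8 libraries), among 15123 genes that did. The 2 that did not were the netrin Ntn5, with 5.91, 7.81, 5.17 and 3.44 normalized counts in KI mice against 2.67, 2.82, 2.74 and 0.977 in controls, and Plxna4os1, an antisense RNA at the Plxna4 locus with 1.12 to 10.3 in KI mice against 1.88 to 9.12 in controls.

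The 4 KI mice carried Nestin Tv-a, floxed p53 on both alleles (p53 fl/fl), Olig2-Tv-a/Cre and hPDGFRA fl/+, a human PDGFRA transgene in the Rosa26 locus behind the CAG promoter and a loxP-flanked stop cassette. The 4 control mice carried Nestin Tv-a, p53 fl/fl and Olig2-Tv-a/Cre and no hPDGFRA. Both groups therefore lacked p53 in cells with Olig2-driven Cre, and KI mice differed by the activation of human PDGFRA in those cells. Mice were of the C57BL/6 strain, untreated, and labelled P19. Each library was made from whole BS, so that recombined and other cells were read together.

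Growing axons and migrating glial precursors are steered by cues that bind receptors on their surface. Semaphorins signal through plexins, with neuropilins as co-receptors of most secreted class 3 members, ephrins through Eph receptors, slits through robos, and netrins through Dcc, which mediates attraction, and the Unc5 receptors, which mediate repulsion. In the postnatal brain several of these genes are also expressed by OL lineage cells, and cues such as Sema4d and Efnb3 are known from mature OLs and myelin, where they repel axons.

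KI libraries held 21492789 to 24458589 reads assigned to genes and control libraries 24816146 to 27716846, so every KI library was shallower than every control. The Rosa26 transcript, at the locus of the transgene, had 328 to 605 normalized counts (reads divided by a size factor for each library) in KI mice and 82.9 to 93.9 in controls, with every KI library above every control. KI replicate 4 was the lowest of the KI libraries in it (328, the others 573 to 605) and in Pdgfra (3269, the others 8939 to 11437), and Pdgfra had 2565 to 3087 in controls. KI replicate 3 and control replicate 4 stood apart in the choroid plexus gene Ttr, with 237 and 44.9 normalized counts, against 14985 to 33888 in the other KI libraries and 60505 to 97274 in the other controls. Xist, which marks female tissue, had 8943 in KI replicate 4 and at most 1.12 in the other KI libraries, against 4155 and 7792 in control replicates 2 and 3 and at most 43.9 in the other controls. All 9 hindbrain Hox genes passed the filter and 1 of 6 forebrain markers did. The p-values below measure the spread between these mice.

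Nearly all guidance genes that passed the test were lower in KI BS, where fewer cells of a type and less RNA per cell cannot be told apart in whole tissue. Of the 70 tested, 25 fell, 1 rose (Plxnb1) and 44 did not pass an adjusted p of 0.05 in limma. Over all 15123 genes, 24.4% passed, 12.0% higher and 12.4% lower in KI mice, and of the 70 guidance genes 37.1% passed and 35.7% were lower. Their median log2 fold change was -0.21, beside -0.0040 over all genes, and 55 of 70 were below 0. All 4 KI libraries lay below all 4 controls in 22 of the 70, against 12.8% of all genes, and in none did all KI libraries lie above all controls, against 12.7% of all genes. The decreases reached a log2 fold change of -1 or lower in 9 of the guidance genes, against 1.69% of all genes (256), lay between -0.5 and -1 in 4 and were smaller in 12. Ligands and receptors were both among them, with 12 of 36 ligands lower and 13 of 34 receptors lower and 1 higher. At an unadjusted p under 0.05 in limma, 33 of the 70 passed, beside 5905 of all 15123 genes. Of the 33, 2 were higher, Plxnb1 and Sema4b, and of the 5905, 2859 were. DESeq2 called 27 and edgeR 26 of the 70, against 29.2% and 24.0% of all genes. The 44 that did not pass in limma ranged from -0.64 to 0.36 in log2 fold change.

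The count depended on single libraries and on a correction for GC content and length. It was 5 of 70 without KI replicate 2, where 6.62% of all genes passed, and also 5 without control replicate 2, where 5.87% did. Without KI replicate 1 it was 14 (14.5% of all genes), without control replicate 3 it was 11 (12.4%), and without the pair of libraries low in Ttr it was 11 (12.1%). Without KI replicate 4 it was higher, at 31 (35.0%), and with the level of Xist as a covariate it was 16 (14.6%). Guidance genes as a whole were long and GC-rich, with a median of 56.0% GC and 7002 exon bases in those that fell and 54.5% and 6851.5 in those that did not pass, against 49.8% and 4439 over all genes. After the correction 15.5% of all genes passed, 7.09% lower and 8.45% higher. Of the guidance genes 13 were then lower and 2 higher (Plxnb1 and Sema4b), and their median log2 fold change was -0.10, beside 0.01 over all genes.

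**Figure D1:**
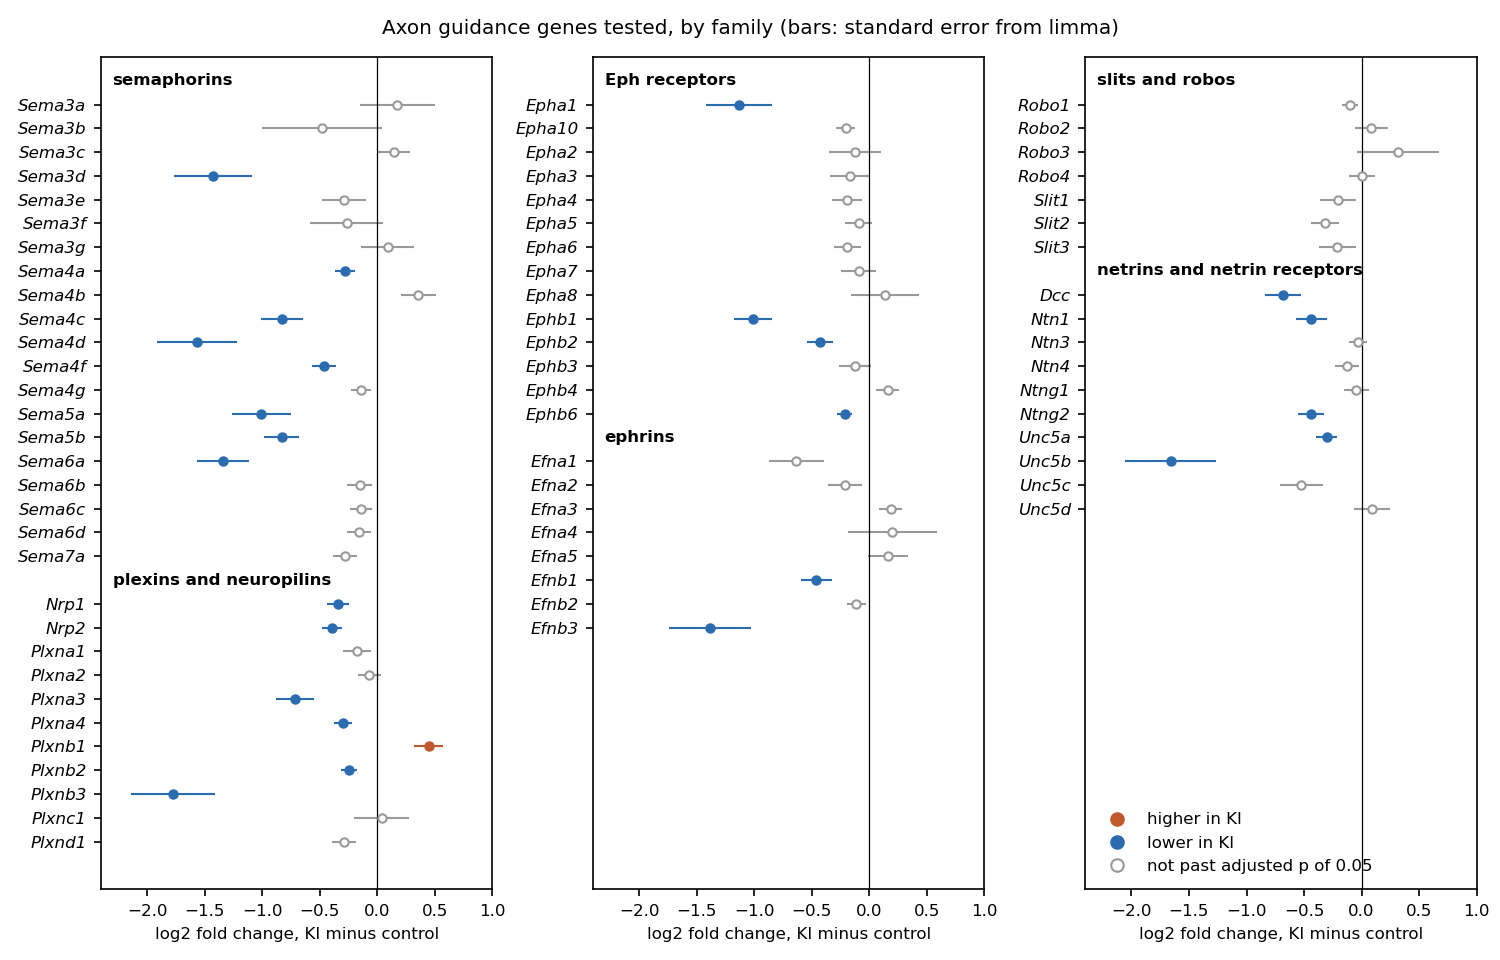
Log2 fold change (KI minus control, horizontal axis) of the 70 guidance genes tested, arranged by family, with bars for the standard error from limma. The values run from -1.77 (Plxnb3) to 0.45 (Plxnb1), and 25 genes fell and 1 rose past the threshold. All 7 slits and robos are among the 44 that did not pass.

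Many markers of the OL lineage were lower in KI mice, and many of astrocytes were higher. Of the OPC markers 9 of 11 fell (median log2 fold change -2.10), with summed levels of 8062 to 20648 normalized counts in KI mice and 25720 to 28208 in controls. Newly formed OL markers fell in 7 of 9, with sums of 8567 to 26140 in KI mice and 30648 to 35333 in controls. Myelinating OL markers fell in 9 of 14 (median -1.36), with sums of 484888 to 1482378 in KI mice and 1191201 to 1812443 in controls, so the ranges of this list overlapped. Astrocyte markers rose in 8 of 12 (median 0.72), with sums of 209622 to 338390 in KI mice and 146879 to 186575 in controls. Pan-neuronal markers rose in 2 of 12 and fell in 1, microglia markers fell in 1 of 10, endothelial markers in 2 of 10 and meningeal fibroblast markers in 3 of 8, beside 12.0% of all genes that rose and 12.4% that fell. The meningeal sums were 3994 to 5255 in KI mice and 5518 to 8006 in controls. Choroid plexus markers passed in 0 of 9 by limma and edgeR and in 1 by DESeq2 (1 at an unadjusted p under 0.05 in limma), with sums of 5471 to 65925 in KI mice and 17730 to 176475 in controls. Without the pair of libraries low in Ttr they fell in 8 of 9 by limma. Ttr is itself among these 9 markers and the pair was left out for its low Ttr, so this count is not independent of that choice. Hindbrain Hox genes passed in 0 of 9 by limma and edgeR and in 1 by DESeq2 (1 at an unadjusted p under 0.05 in limma), with positive log2 fold changes in all 9 (0.42 to 0.91, median 0.62). Without the pair of libraries low in Ttr 1 of the 9 passed in limma and 5 had an unadjusted p under 0.05, all higher in KI mice. Cerebellar granule and Purkinje cell markers passed in 0 of 9 by all 3 tools (0 at an unadjusted p under 0.05 in limma). No marker of any list was at 0 in all libraries, and the part of these lists in the guidance genes was not tested.

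Among semaphorins, 8 of 20 fell and none rose by limma. The class 4 members, transmembrane ligands that bind plexin-B receptors, fell in 4 of 6, and the class 5 members, transmembrane ligands with thrombospondin repeats, in 2 of 2. Of the secreted class 3 members 1 of 7 fell, and of the class 6 members 1 of 4. Neither share was below the 12.4% of all genes that fell, so these counts do not show that either class was spared. The GPI-anchored Sema7a did not pass.

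Sema4d, the ligand of plexin-B1 made by OLs, had 4211, 3123, 1873 and 7353 normalized counts in KI mice against 9439, 11374, 13580 and 9537 in controls. All KI libraries were below all controls, with KI replicate 4 nearest to them. The log2 fold change was -1.57 (SE 0.349, adjusted p = 0.0164, limma). Sema6a, a transmembrane ligand of plexin-A2 and plexin-A4, had 1217, 1038, 989 and 2202 in KI mice against 2881, 3409, 3536 and 3267 in controls. Again the groups were apart and KI replicate 4 was the highest of its group, with a log2 fold change of -1.34 (SE 0.224, adjusted p = 0.00924, limma). Sema3d, a secreted ligand, had 194, 195, 132 and 503 in KI mice against 562, 620, 698 and 549 in controls. KI replicate 4 came near the lowest control, and the groups did not overlap (log2 fold change -1.43, SE 0.340, adjusted p = 0.0193, limma).

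Both class 5 semaphorins were lower in KI BS. Sema5a, for which plexin-B3 has been described as a receptor, had 2177, 2200, 1994 and 4748 normalized counts in KI mice against 4627, 4981, 6480 and 4946 in controls. KI replicate 4 lay above control replicate 1, so the groups overlapped, and the log2 fold change was -1.01 (SE 0.254, adjusted p = 0.0229, limma). Sema5b had 244, 187, 276 and 271 in KI mice against 400, 524, 365 and 452 in controls. The groups were apart and KI replicate 4 was not the highest of its group here (log2 fold change -0.83, SE 0.152, adjusted p = 0.0112, limma).

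Of the remaining class 4 members, Sema4c, a ligand of plexin-B2, had 419, 319, 306 and 572 normalized counts in KI mice against 644, 727, 776 and 640 in controls (log2 fold change -0.83, adjusted p = 0.0165, limma). Sema4f had 1163, 1178, 897 and 1281 in KI mice against 1466, 1562, 1646 and 1505 in controls (log2 fold change -0.46, adjusted p = 0.0173, limma). In both, every KI library was below every control. Sema4a averaged 876 ± 36.6 in KI mice and 1066 ± 125 in controls (SD, n = 4 each), a log2 fold change of -0.28 (adjusted p = 0.0470, limma), with KI and control libraries also apart. Sema6a and Sema5b passed whichever library was left out, while Sema4d and Sema4c did not pass without KI replicate 2 or without control replicate 2 and Sema4f not without these or control replicate 3. Sema3d passed in 4 of the 8 such fits, Sema5a in 3 and Sema4a in 1. Corrected for GC and length, Sema4f had an adjusted p of 0.0885 and Sema4a of 0.359, and without the libraries low in Ttr Sema3d had 0.0527, Sema5a 0.0720 and Sema4a 0.143 (limma), at log2 fold changes of -1.22, -0.90 and -0.20.

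The semaphorins that did not pass included the most abundant one per length in KI mice. Sema7a, a GPI-anchored ligand of integrins and plexin-C1, had 3173, 2968, 3517 and 3616 normalized counts in KI mice against 4750, 4155, 3590 and 3639 in controls. KI replicate 4 lay above control replicate 3, and the log2 fold change was -0.28 (adjusted p = 0.0806, limma). Sema3b, the non-passing semaphorin with the largest fold change, had 243, 268, 130 and 384 in KI mice against 420, 384, 693 and 110 in controls. Control replicate 4, one of the libraries low in Ttr, was the lowest of all 8, and the log2 fold change was -0.48 (SE 0.524, adjusted p = 0.538, limma). Sema4b ran the other way, with 487, 518, 442 and 321 in KI mice against 317, 338, 314 and 395 in controls. It had a log2 fold change of 0.36 (adjusted p = 0.113, limma), which became 0.52 (adjusted p = 0.0456) after the GC and length correction. Sema3a, Sema3c, Sema3e, Sema3f, Sema3g, Sema4g, Sema6b, Sema6c and Sema6d had log2 fold changes from -0.29 to 0.17 and did not pass.

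Plexins, the receptors of semaphorins, fell in 4 of 9 and rose in 1, and both neuropilins fell. Within the plexin-B receptors the members went opposite ways. Plxnb3 had 890, 811, 514 and 2184 normalized counts in KI mice against 3510, 3332, 3542 and 2684 in controls. KI replicate 4 held 66.8% of the control mean and the other KI libraries 15.7% to 27.2%, with no overlap with controls. Its log2 fold change of -1.77 (SE 0.361, adjusted p = 0.0132, limma) was the lowest of the 70 guidance genes, and Plxnb3 passed whichever library was left out.

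Plxnb1, the receptor of Sema4d, had 6781, 6337, 6903 and 4562 normalized counts in KI mice against 4853, 4084, 4513 and 4391 in controls. KI replicates 1 to 3 were above all controls, but KI replicate 4 was below control replicate 1. It was the only guidance gene to rise (log2 fold change 0.45, SE 0.129, adjusted p = 0.0351, limma), and it passed in 1 of the 8 fits that left out a library, the one without KI replicate 4. Plxnb2 had 1744, 1627, 1749 and 1479 in KI mice against 1971, 1953, 2030 and 1854 in controls. It was lower by a smaller step (log2 fold change -0.25, adjusted p = 0.0333, limma), KI replicate 4 was the lowest of its group, and the adjusted p was 0.527 after the GC and length correction. Plxnb2 passed in 4 of the 8 fits that left out a library.

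The plexin-A receptors, which signal for neuropilins and for class 6 semaphorins, fell in 2 of 4. Plxna3 had 252, 281, 324 and 438 normalized counts in KI mice against 462, 595, 476 and 558 in controls (log2 fold change -0.71, SE 0.168, adjusted p = 0.0187, limma). Plxna4 had 2086, 2345, 2106 and 2558 in KI mice against 2809, 2765, 2915 and 2666 in controls (log2 fold change -0.30, adjusted p = 0.0235, limma). KI replicate 4 was the highest KI library in both, and neither overlapped with controls. Plxna3 passed in 6 of the 8 fits that left out a library and Plxna4 in 2. Without the libraries low in Ttr the adjusted p was 0.0618 for Plxna3 and 0.0665 for Plxna4 (limma). Plxna1 and Plxna2 had log2 fold changes of -0.17 and -0.07 and did not pass (adjusted p = 0.315 and 0.654, limma).

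Nrp1 and Nrp2 are the co-receptors of class 3 semaphorins and also bind VEGF. Nrp2 had 854, 957, 757 and 964 normalized counts in KI mice against 1104, 1145, 1252 and 1124 in controls (log2 fold change -0.39, SE 0.0894, adjusted p = 0.0171, limma). Nrp1 had 494, 562, 657 and 619 in KI mice against 681, 753, 751 and 755 in controls (log2 fold change -0.34, SE 0.0957, adjusted p = 0.0323, limma). In neither gene did the groups overlap, and the highest KI library of Nrp1 was replicate 3. Nrp2 passed in 7 of the 8 fits that left out a library and Nrp1 in 3. After the GC and length correction Nrp1 passed (adjusted p = 0.0273), but Nrp2 (0.113), Plxna3 (0.0532) and Plxna4 (0.275) did not.

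Plxnd1, the receptor of Sema3e in vessels, had 339, 345, 405 and 334 normalized counts in KI mice against 428, 497, 432 and 379 in controls, with KI replicate 3 above control replicate 4 and a log2 fold change of -0.28 (adjusted p = 0.0749, limma). Without the libraries low in Ttr, which removes both of these, its adjusted p was 0.0416. Plxnc1, the plexin that binds Sema7a, was near 0 in log2 fold change (0.04, SE 0.239, adjusted p = 0.919, limma).

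**Figure D2:**
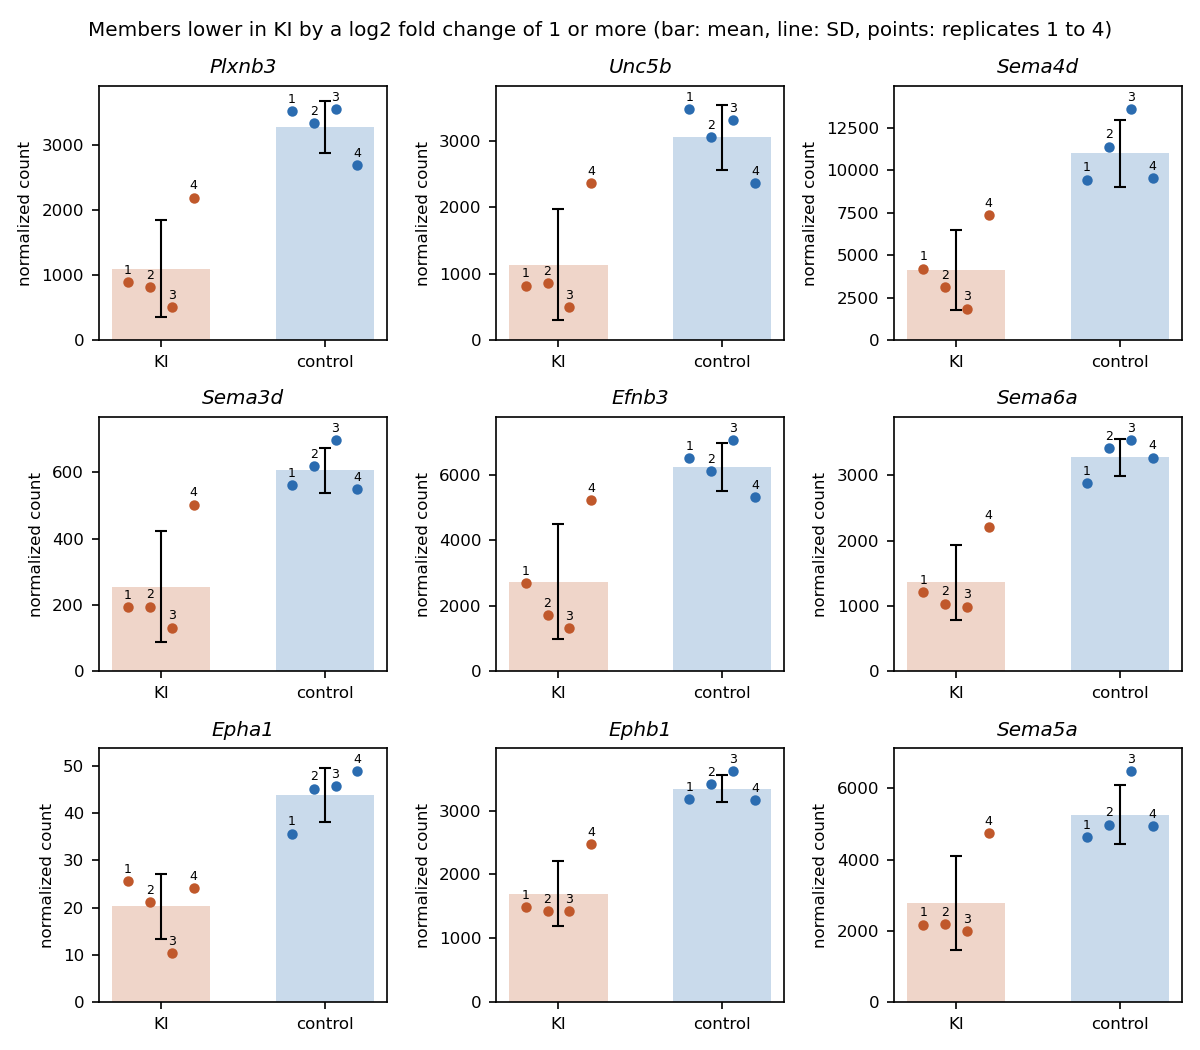
Normalized counts (vertical axis, from 0) in each library of KI and control mice for the 9 guidance genes that fell furthest (log2 fold change of -1 or lower), with bars for the mean, lines for the SD and numbered points for replicates 1 to 4. KI replicate 4 is the highest KI library in 8 of the 9, beside 77.5% of all genes that fell. The groups are apart in 8 of the 9, Sema5a being the exception, while all KI libraries lay below all controls in 12.8% of all genes. The 9 were picked by fold change and adjusted p, which favours groups that lie apart.

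Eph receptors fell in 4 of 14 and none rose. The EphB receptors, which bind the transmembrane ephrin-B ligands, fell in 3 of 5, and the EphA receptors, which bind the GPI-anchored ephrin-A ligands, in 1 of 9. The EphA share of 11.1% was near the 12.4% of all genes that fell. Log2 fold changes were below 0 in 8 of 9 EphA and 4 of 5 EphB receptors, with medians of -0.17 and -0.22. These counts therefore do not show that the EphA receptors were spared. Ephb1, known for guiding retinal axons at the optic chiasm, had 1491, 1426, 1421 and 2471 normalized counts in KI mice against 3176, 3411, 3616 and 3164 in controls. KI replicates 1 to 3 lay close together, KI replicate 4 stood above them, and all were below the controls. With a log2 fold change of -1.01 (SE 0.167) Ephb1 had the smallest adjusted p of the guidance genes (0.00912, limma), and it passed whichever library was left out.

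Ephb2 had 470, 519, 506 and 616 normalized counts in KI mice against 615, 739, 679 and 808 in controls, with KI replicate 4 level with control replicate 1 (log2 fold change -0.43, adjusted p = 0.0241, limma). Ephb6, a receptor without kinase activity, had 998, 1036, 945 and 1081 in KI mice against 1091, 1216, 1185 and 1224 in controls, with no overlap and a small log2 fold change of -0.22 (adjusted p = 0.0457, limma). Epha1 was measured at low levels, with 25.6, 21.2, 10.3 and 24.1 in KI mice against 35.7, 45.1, 45.6 and 48.8 in controls. The groups were apart, KI replicate 3 was the lowest, and the log2 fold change was -1.14 (SE 0.288, adjusted p = 0.0231, limma). Ephb1 and Epha1 passed after the GC and length correction, while Ephb2 (adjusted p = 0.162) and Ephb6 (0.652) did not. Ephb2 passed in 3 of the 8 fits that left out a library and Epha1 in 5.

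The other 10 Eph receptors had log2 fold changes from -0.21 to 0.16. Epha10, another receptor without kinase activity, had the largest of them, with 1363, 1378, 1252 and 1334 normalized counts in KI mice against 1352, 1610, 1472 and 1734 in controls. Only control replicate 1 fell within the KI range, and the log2 fold change of -0.21 did not pass (adjusted p = 0.0974, limma). Epha4, the receptor of corticospinal axons for Efnb3, had 1052, 1248, 1628 and 1327 in KI mice against 1310, 1512, 1465 and 1689 in controls, a log2 fold change of -0.20 (adjusted p = 0.296, limma).

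Ephrins fell in 2 of 8, both of the B class. Efnb3, a midline repellent that is also found in myelin, had 2691, 1723, 1321 and 5232 normalized counts in KI mice against 6507, 6116, 7058 and 5319 in controls. KI replicate 4 was just below control replicate 4 and the others far below (log2 fold change -1.39, SE 0.358, adjusted p = 0.0245, limma). Efnb1 had 75.9, 92.6, 83.7 and 101 in KI mice against 123, 139, 119 and 106 in controls, with no overlap (log2 fold change -0.46, adjusted p = 0.0381, limma). Efnb2, by contrast, had 486 to 541 in KI mice and 505 to 613 in controls (log2 fold change -0.11, adjusted p = 0.357, limma). None of the 5 ephrin-A ligands passed in limma, DESeq2 or edgeR, where 24.4%, 29.2% and 24.0% of all genes did. In each tool 1 of the 5 had an unadjusted p under 0.05. That was Efna1, with 81.8, 49.1, 58.9 and 108 in KI mice against 134, 99.7, 116 and 98.6 in controls. KI replicate 4 lay within the control range, and the log2 fold change was -0.64 (SE 0.239, adjusted p = 0.0807, limma).

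Efnb3 passed in 3 of the 8 fits that left out a library and Efnb1 in 2, and the adjusted p of Efnb3 was 0.0564 and that of Efnb1 0.0732 without the libraries low in Ttr (limma), at log2 fold changes of -1.18 for Efnb3 and -0.50 for Efnb1. Efnb1 did not pass after the GC and length correction either (0.147).

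Slits and robos, the repellent ligands and receptors of midline crossing, did not pass in any of 7 genes by limma, DESeq2 or edgeR. Over all genes 24.4%, 29.2% and 24.0% passed in these tools, so 7 genes are too few to show that this family was spared. In each tool 1 of the 7 had an unadjusted p under 0.05 (in limma 5905 of all 15123 genes did). That gene was Slit2, with 947, 965, 813 and 1139 normalized counts in KI mice against 1272, 1197, 1351 and 986 in controls. KI replicate 4 lay above control replicate 4, and the log2 fold change was -0.32 (SE 0.123, adjusted p = 0.0896, limma). Slit1, the slit of highest level per length, had 691, 726, 836 and 702 in KI mice against 629, 903, 809 and 1126 in controls (log2 fold change -0.20, SE 0.158, adjusted p = 0.376, limma). Its 2 groups overlapped, and so did those of Slit3 (-0.21). Robo1 and Robo2, the main slit receptors on axons, had log2 fold changes of -0.10 and 0.09 with SEs of 0.0694 and 0.145, the endothelial Robo4 had 0.00 (SE 0.111), and Robo3, a receptor of commissural axons, had 12.6 to 37.2 normalized counts in KI mice and 10.7 to 22.5 in controls.

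Of the netrins and their receptors, 5 of 10 fell. Unc5b, a repulsive netrin receptor, had 826, 864, 495 and 2361 normalized counts in KI mice against 3478, 3053, 3317 and 2367 in controls. KI replicate 4 was just below control replicate 4, and the other KI libraries were far below both. The log2 fold change was -1.66 (SE 0.393, adjusted p = 0.0190, limma). Unc5a, its relative in neurons, had 953, 842, 749 and 902 in KI mice against 1086, 1094, 947 and 1122 in controls. KI replicate 1 lay above control replicate 3, and the log2 fold change was -0.30 (SE 0.0905, adjusted p = 0.0386, limma).

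Ntn1 and Dcc, the attractive ligand and its receptor, fell together. Dcc had 166, 209, 205 and 200 normalized counts in KI mice against 263, 322, 269 and 419 in controls, with the groups apart (log2 fold change -0.69, SE 0.157, adjusted p = 0.0173, limma). Ntn1 had 534, 630, 510 and 564 in KI mice against 637, 854, 648 and 924 in controls, with KI replicate 2 just below the lowest control (log2 fold change -0.44, SE 0.134, adjusted p = 0.0419, limma). In these genes KI replicate 4 was not the highest of its group. Ntng2, a GPI-anchored synaptic protein that does not bind Dcc, had 354, 293, 348 and 372 in KI mice against 523, 391, 466 and 478 in controls. No KI library reached the lowest control (log2 fold change -0.44, SE 0.112, adjusted p = 0.0234, limma).

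The other netrin genes, Ntn3, Ntn4, Ntng1 and Unc5d, had log2 fold changes from -0.13 to 0.09 and did not pass. Unc5c had 723, 648, 794 and 1191 in KI mice against 1150, 1173, 1439 and 978 in controls, and KI replicate 4 was above 3 of the controls (log2 fold change -0.52, SE 0.186, adjusted p = 0.0676, limma). Unc5b passed in 4 of the 8 fits that left out a library, Dcc in 6, Ntng2 in 5, and Unc5a and Ntn1 in 3 each. After the GC and length correction Unc5b (adjusted p = 0.0417) and Dcc (0.0323) passed, but Ntng2 (0.128), Unc5a (0.266) and Ntn1 (0.184) did not.

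Ligands and receptors known as partners can be set side by side. Sema4d and its receptor Plxnb1 moved in opposite directions (log2 fold changes -1.57 and 0.45), whereas Sema5a and Plxnb3 (-1.01 and -1.77), Sema4c and Plxnb2 (-0.83 and -0.25) and Ntn1 with Dcc (-0.44 and -0.69) all passed and were lower. Sema6a fell by 1.34 on the log2 scale beside Plxna4, which fell by 0.30, and Plxna2, which did not pass. Efnb3 fell by 1.39 beside Ephb1, which fell by 1.01, Ephb2 (log2 fold change -0.43) and Epha4, which did not pass. Neither Sema7a nor Plxnc1 passed. These pairs are examples and not all partners among the families. Of the genes here that passed, Plxnb2, Ntn1, Plxna4 and Ephb2 did not pass after the GC and length correction. The fold changes are differences within each gene in one set of mice, and the binding of the pairs was not measured.

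Levels between genes were compared per kilobase of exon, as normalized counts per kilobase (mean ± SD, n = 4 each). Efnb3 had 861 ± 552 in KI mice and 1964 ± 230 in controls and Sema4d had 539 ± 305 in KI mice and 1430 ± 254 in controls, the highest levels of the guidance genes in controls, which differed by more than the sum of their SDs. Sema7a, with 1006 ± 91.4 in KI mice and 1223 ± 164 in controls, came next in controls and within the SDs of Sema4d. In KI mice the order was Sema7a, Efnb3, Plxnb1 (641 ± 113, against 465 ± 33.1 in controls) and Sema4d, and the SDs of neighbours in that order overlapped. In controls Plxnb3 (169 ± 114 in KI mice, 503 ± 61.5 in controls), Unc5b (182 ± 133 and 488 ± 78.3), Sema6b (431 ± 25.2 and 483 ± 75.3), Ephb1 (243 ± 73.3 and 477 ± 30.7) and Plxnb1 lay close together and within 1 SD of their neighbours, while in KI mice they ranged from 169 to 641. Epha1, with 5.17 ± 1.76 in KI mice and 11.2 ± 1.44 in controls, was near the bottom of the order.

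KI replicate 4 was closer to controls than the other KI libraries in most of the genes that fell. It was the highest KI library in 17 of the 25, a share of 68.0%, beside 77.5% of all 1874 genes that fell. Its share of the control mean was 66.8% for Plxnb3 (15.7% to 27.2% in KI replicates 1 to 3), 77.3% for Unc5b (16.2% to 28.3%), 83.7% for Efnb3 (21.1% to 43.1%) and 67.0% for Sema4d (17.1% to 38.3%). Its sum of OPC markers was also the highest of the KI libraries (20648 normalized counts, the others from 8062), as was that of the myelinating OL markers (1482378). In Sema5b, Dcc, Ntn1, Nrp1, Plxnb2, Epha1, Unc5a and Sema4a, which also fell, another KI library was the highest. Without KI replicate 4 the fit called 31 of the 70, 25 of the 26 among them, and the gene lost was Sema4a.

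**Figure D3:**
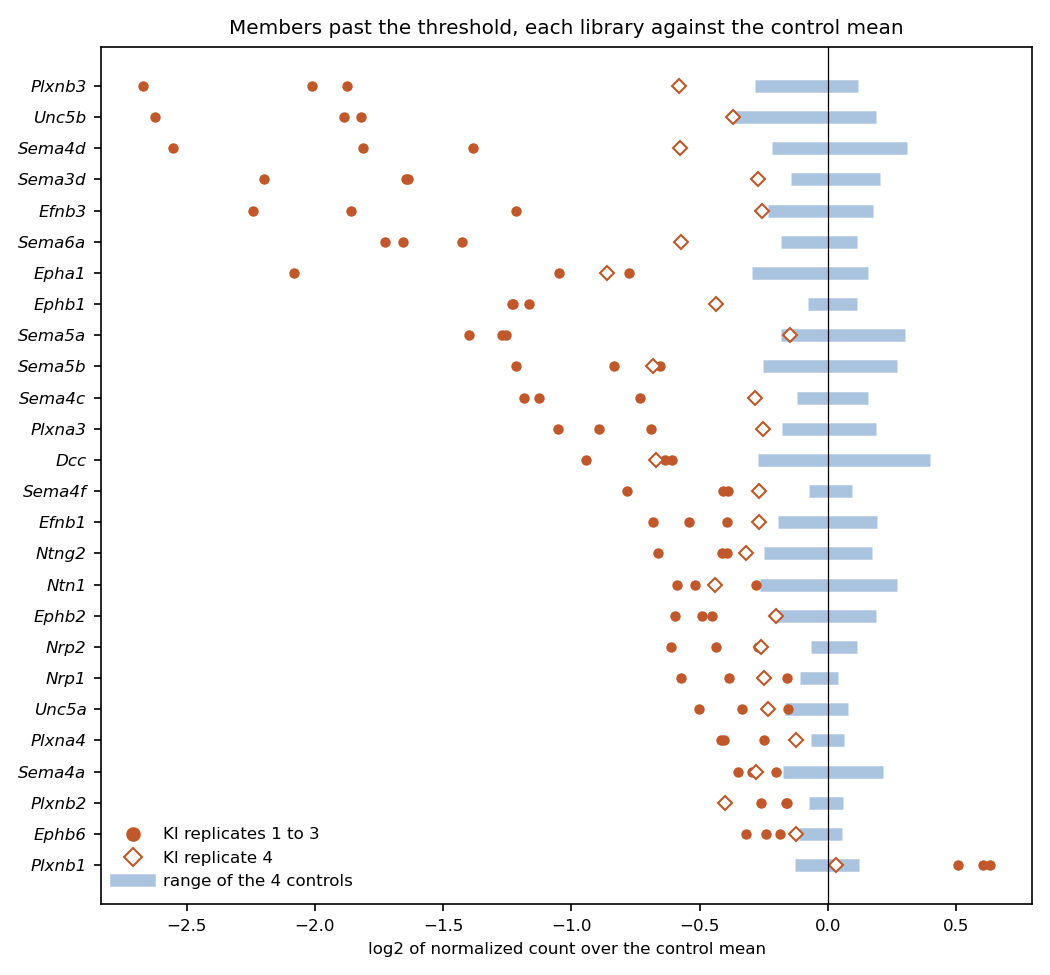
Log2 of the normalized count over the control mean (horizontal axis) for the 26 guidance genes past the threshold, with filled points for KI replicates 1 to 3, open diamonds for KI replicate 4 and bands for the range of the 4 controls. KI replicate 4 sits at 66.8% of the control mean for Plxnb3 while the other KI libraries sit at 15.7% to 27.2%, and for Dcc and Sema5b it lies among the other KI libraries.

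In 5 genes chosen after their values were seen, KI replicate 3 and control replicate 4 lay at the same end of both groups. How many other genes do so was not counted, so the 5 are only examples of this pattern. KI replicate 3 and control replicate 4, the libraries low in Ttr, were each the lowest of their group in Sema3a, which encodes a secreted repellent, with 299 normalized counts in KI replicate 3 (the other KI libraries 598 to 670) and 255 in control replicate 4 (the other controls 541 to 606). Sema3b had 130 and 110 in these libraries, also the lowest of each group. Sema3f, Epha8 and Plxnc1 had their highest value in the same libraries. Sema3f had 501 in KI replicate 3 (the others 204 to 267) and 551 in control replicate 4 (the others 245 to 346), Epha8 had 434 (199 to 248) and 371 (181 to 243), and Plxnc1 had 891 (505 to 565) and 837 (419 to 647). Between KI mice and controls none of the 5 passed with all libraries (adjusted p from 0.538 to 0.919, limma) or without this pair (0.0892 to 0.936). These p-values do not measure the pattern. The part of the tissue sampled in these libraries in this pattern was not tested. Hindbrain Hox sums were 2339 in KI replicate 3 (2339 to 6991 over the KI libraries) and 2545 in control replicate 4 (1675 to 4949 over the controls). Cerebellar marker sums were 2434 (1856 to 5583) and 2506 (2003 to 4174), within both ranges. The markers Tcf7l2 and Slc6a5, chosen after their values were seen, lay at the same end of both groups. Tcf7l2 was highest, with 2030 in KI replicate 3 (the others 154 to 179) and 1355 in control replicate 4 (224 to 299). Slc6a5 was lowest, with 4952 (10923 to 13146) and 7274 (10939 to 13354).

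**Figure D4:**
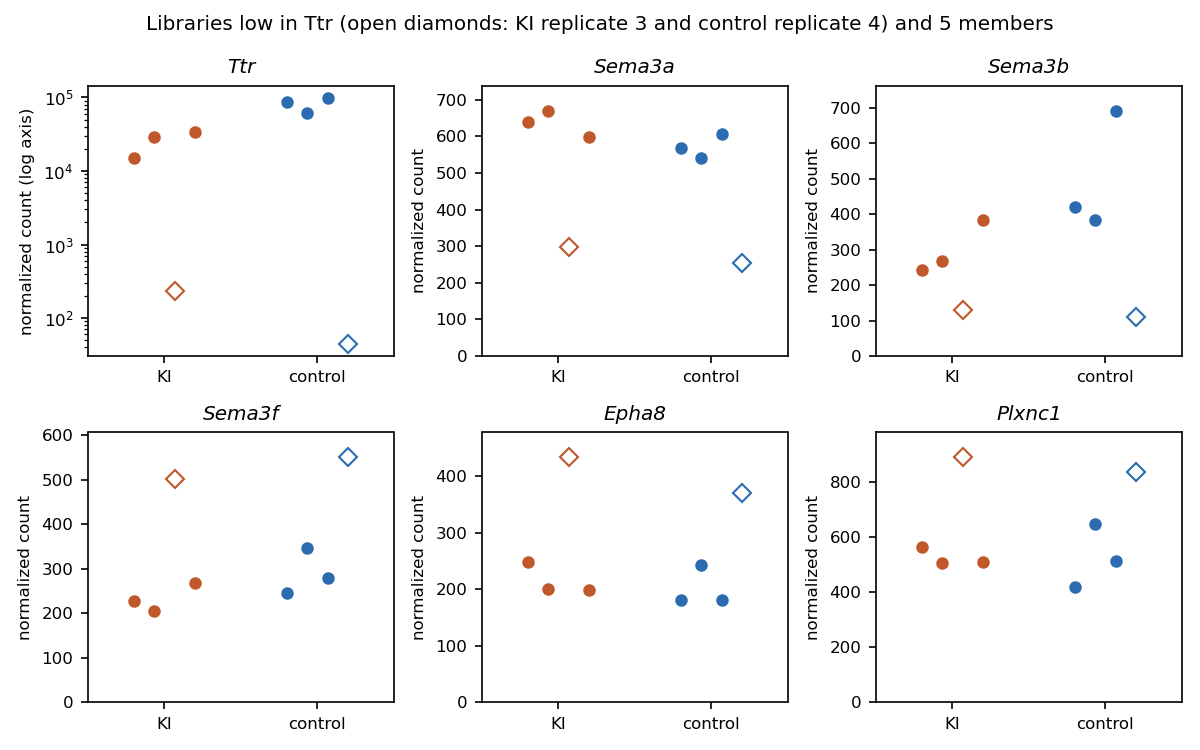
Normalized counts of Ttr (vertical log axis) and of 5 guidance genes (vertical axes from 0) in KI and control libraries. The 5 genes were chosen after their values were seen. Open diamonds mark KI replicate 3 and control replicate 4. The diamonds lie lowest in each group for Sema3a and Sema3b and highest for Sema3f, Epha8 and Plxnc1.

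Genes that act beside these ligands and receptors were read from 3 lists. Of 45 intracellular transducers, 11 fell and 2 rose (median log2 fold change -0.04), so that 28.9% passed, near the 24.4% of all genes. The lowest p among them were those of Dpysl5, a collapsin response mediator (log2 fold change -0.44), Mical3, a member of the Mical redox enzymes that act below plexins (-0.44), Fyn, a Src family kinase of axons and OLs (-0.77), and Trio (-0.35), with adjusted p of 0.00938, 0.0122, 0.0132 and 0.0135 in limma. The risers were Vav3 (0.40, adjusted p = 0.0265) and Cdc42 (0.20, adjusted p = 0.0407, limma). The transducer with the largest positive value was Farp1 (0.46), which did not pass (adjusted p = 0.113, limma). After the GC and length correction Fyn (adjusted p = 0.0282, limma) and Vav3 (0.0359) passed. Dpysl5 (0.0527), Mical3 (0.139), Trio (0.154) and Cdc42 (0.945) then did not. Of 28 other cues, co-receptors and adhesion partners, 10 fell and 2 rose (median -0.09), so that 42.9% passed, beside 24.4% of all genes. Neo1, the receptor of repulsive guidance molecules (-0.52), L1cam (-0.63), Ptprf (-0.33) and Cdon (-0.59) had the smallest p among those that fell. Their adjusted p were 0.0105, 0.0106, 0.0113 and 0.0136 in limma. Boc, a hedgehog co-receptor, was the furthest up (0.60, adjusted p = 0.0339, limma), with Ryk (0.30) the other that rose. After the GC and length correction Neo1, L1cam, Cdon, Boc and Ryk passed (adjusted p of 0.0271, 0.0296, 0.0323, 0.0301 and 0.0385, limma). Ptprf (0.172) did not.

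Of 9 myelin-associated inhibitors of axon growth and their receptors, 1 fell and none rose in limma, DESeq2 or edgeR, while 4 had an unadjusted p under 0.05 in limma. This share of 11.1% was under the 24.4% of all genes that passed but near the 12.4% that fell. Log2 fold changes were below 0 in 8 of the 9 (median -0.27), and 9 genes are too few to show that this list was spared. The gene that fell was Mag, a myelin protein that is also among the myelinating OL markers, with 13065, 8729, 4978 and 26633 normalized counts in KI mice against 39492, 39213, 41086 and 31881 in controls (log2 fold change -1.77, adjusted p = 0.0189, limma). As in Plxnb3 and Sema4d, the groups did not overlap and KI replicate 4 was the highest KI library. The receptor Tnfrsf19 was the furthest up, at 0.17 (adjusted p = 0.241, limma). The 82 genes of the 3 lists thus held 22 that fell and 4 that rose, and after the GC and length correction 7 that fell and 9 that rose, where 7.09% of all genes fell and 8.45% rose.

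The promoters of the genes that fell were read for binding letters of OL lineage factors, ACAAAG for SoxE factors and the E-boxes CAGCTG and CATCTG, on both strands of a window from 250 bases before to 50 after a start of the gene (RefSeq, GRCm38.p6). Of the 25 genes 20 had a window, and ACAAAG was in 4 (20.0%), CAGCTG in 2 (10.0%) and CATCTG in 3 (15.0%). Of the 47 other guidance genes 41 had one, with shares of 14.6%, 24.4% and 7.32%, and the shares over 27025 genes were 21.0%, 18.3% and 19.2%. The 3 shares in the genes that fell were thus no higher than those of all genes. They rest on 2 to 4 genes among 20 windows, so no lack of these motifs can be read from them. The windows below are those of the genes that fell and hold ACAAAG or CAGCTG before a start (Plxnb3, Sema3d, Sema4d and Sema4f), with 1 motif in capitals on each line, on the gene's strand from 5′ to 3′. The 2 windows of Plxnb3 overlap, the first for ACAAAG and the second for CAGCTG. Epha1, Ntng2 and Sema4a also fell and hold CATCTG before a start, and their windows are not shown. CTTTGT is ACAAAG read on the other strand. A match describes the letters and not a site in use.
Plxnb3 (chrX:73756930-73756957, plus strand): ggccactattgACAAAGctgccagctgt
Plxnb3 (chrX:73756940-73756967, plus strand): gacaaagctgcCAGCTGtggtggagccc
Sema3d (chr5:12382936-12382963, plus strand): gccaaagttttACAAAGaaacacctgta
Sema3d (chr5:12383014-12383041, plus strand): tccttggagtaCTTTGTgaaagtgaagg
Sema4f (chr6:82939770-82939786, minus strand): tccattggttcCTTTGT
Sema4d (chr13:51756757-51756784, minus strand): acagataccctCAGCTGcagcagagctg
The capitals begin 162 bases before the start for the ACAAAG of Plxnb3, 219 and 141 for those of Sema3d, 6 for that of Sema4f, 152 for the CAGCTG of Plxnb3 and 90 for that of Sema4d. Of these 4 genes, the log2 fold changes were -1.77 for Plxnb3, -1.57 for Sema4d, -1.43 for Sema3d and -0.46 for Sema4f.

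Reads that fell on exons of a gene on the other strand were counted for neither gene. Such overlaps touch Epha1 (236 of 3928 exon bases, shared with Zyx), Sema4c (334 of 4593), Plxnb1 (257 of 9592), Ephb1 (152 of 7002), Plxna4 (110 of 14103) and Unc5a (34 of 4168) among the genes that passed, and the levels of these genes can miss reads.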

How the data were processed

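BS RNA (TruSeq mRNA libraries) was sequenced from 4 KI and 4 control mice, grouped by the titles of the samples. The authors aligned paired reads to mm10 with STAR 2.7 and counted them with HTSeq without strand, in union mode at a minimum alignment quality of 10, ambiguous and non-unique reads being counted for no gene. The deposited signal is the read count of a gene scaled by the authors with the size factor of each library from DESeq2. Undoing the scaling gave whole reads, within 0.01, for 100% of values. The deposited fold changes, p-values and group means of the authors' own comparison were not used.

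Of 24709 lines, 628 that repeated a gene were dropped. The filter kept 15123 of 24081 genes, those whose normalized counts averaged 10 or more. KI mice were compared with controls on log2(normalized count + 1) with limma 3.58.1 (trend, R 4.3.3) and Benjamini-Hochberg adjustment at 0.05 over all genes kept, so fold changes of low genes are understated. The main test was limma on the normalized values as deposited, and the DESeq2 of the study was kept as an alternative. Alternatives were DESeq2 1.42.0 and edgeR 4.0.16 on the recovered reads, TMM and upper-quartile scaling, pseudocounts of 0.1 and 10, no filter, each library left out, a replicate block, log2 Xist as a covariate, the libraries low in Ttr left out, and a loess correction (span 0.3) for GC and exon length, which 99.9% of genes had. The steps were tested on simulated data.

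The genes and lists were chosen with earlier results of these data known. Guidance genes past the threshold were named with each library's value where they were among the 25 with the smallest p, with the largest non-passing fold change and the highest level of each family, and of each pathway list the 4 smallest p and the gene furthest the other way. Genes named beyond this were chosen after their values were seen.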

Additional observations from a re-analysis of the deposited data

Results flagged for a closer look

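In 6 of 76 sets of 4 libraries checked, 1 library stood apart from the other 3 by more than Dixon's limit for 4 values. That limit flags about 1 set in 20 by chance. The sets share the same libraries and include genes chosen after their values were seen, such as Plxnc1, so the number flagged cannot be compared with that rate. KI replicate 4 stood above the other KI libraries in 3 genes that fell, with 2471 normalized counts in Ephb1 (the others 1421 to 1491), 503 in Sema3d (132 to 195) and 4748 in Sema5a (1994 to 2200). KI replicate 3, low in Ttr, stood above the other KI libraries in Plxnc1, with 891 (505 to 565), and in Plxnd1, with 405 (334 to 345). Control replicate 1 stood below the other controls in Nrp1, with 681 (751 to 755).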

How the results depend on the processing

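No call of a guidance gene changed direction under any alternative run. All 26 calls were kept by DESeq2, edgeR, TMM scaling and pseudocounts of 0.1 and 10, 23 without the low-count filter and 21 with upper-quartile scaling, where Plxnb2, Unc5a, Ntn1, Ephb6 and Sema4a were lost. Leaving out 1 library gave 5 to 31 guidance genes (26 with all), 888 to 5296 of all genes (3685) and 7 to 37 of the pathway lists (26). Only Ephb1, Sema6a, Sema5b and Plxnb3 passed in all 8 such fits. With log2 Xist as a covariate the counts were 16 guidance genes, 2210 of all genes and 15 of the pathway lists. Without the libraries low in Ttr they were 11, 1836 and 10, and with the GC and length correction 15, 2348 and 16. The cause of these changes was not tested, beyond the fewer libraries in a fit.

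With the replicate number as a block limma called 0 guidance genes, 0 of all genes and 0 of the pathway lists, and 30, 5087 and 32 had an unadjusted p under 0.05. Same-numbered libraries did not deviate together (correlations 0.26, -0.12, -0.46 and -0.36 for numbers 1 to 4), and not every library correlated best with its own number, so the samples share only a number. Genes of low counts, such as Epha1 and Efna4, are limited by depth.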
